A study of Marchantia polymorpha with 12 samples.

Results

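The wounded libraries of a desaturase double mutant, named Mpfad3fad7 in the sample titles, were compared with the wounded libraries of Tak-1, the male wild-type accession of the liverwort Marchantia polymorpha. These are 6 of the 12 RNA-seq libraries of the study, 3 for each genotype, and all 13726 genes that passed a filter on low counts were compared, of 20574 gene IDs. The other 6 libraries are unwounded (mock) plants of both genotypes. All plants grew for 3 weeks on agar with Gamborg's B5 salts. Wounds were made with tweezers, and tissue was frozen 2 h later, which is also the time given for mock plants. Each library came from its own pool of 6 to 8 plants, from apical pieces without gemma cups, although the tissue label reads "Leaflets". The growth protocol writes the mutant as Mpdes6fad5, and no label gives its alleles, its sex or the number of lines used.

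Desaturases place double bonds in the acyl chains of membrane lipids, and the trienoic fatty acids that the omega-3 desaturases make are the substrate of jasmonate synthesis. Lipoxygenases oxygenate these fatty acids, and P450 enzymes of the CYP74 family convert the hydroperoxides, some of them towards the cyclic oxylipin OPDA. In Marchantia, the receptor COI1 perceives a dinor form of OPDA rather than the jasmonoyl-isoleucine of flowering plants, and JAZ repressor proteins are then degraded.

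The wounded mutant libraries held 27436922 counts (library 1), 20439510 counts (A) and 28674354 counts (B), where A and B are a pair of columns with the same header and therefore no replicate number. Wounded Tak-1 libraries 1, 2 and 3 held 30330355, 25231159 and 22860423 counts. Levels below are CPM, read counts scaled to the library's total over tested genes, multiplied by its TMM scaling factor from edgeR. In the wounded libraries this factor ran from 0.924 (Tak-1 library 2) to 0.9998 (mutant library 1), so CPM cannot be recomputed from the totals above alone. Values are given for mutant libraries 1, A and B and Tak-1 libraries 1, 2 and 3 in that order. Across genes, log2 CPM correlated at 0.987 to 0.992 between wounded libraries of a genotype and at 0.972 to 0.979 between genotypes. Transcript levels of MpPRM, a protamine of sperm, were at 0 counts in all 6 wounded libraries, and MpDUO1, a factor of the male germ line, was at 2.81 to 3.52 CPM in mutant and 2.94 to 3.56 CPM in Tak-1 libraries. MpMID, grouped here with MpPRM and MpDUO1, stood higher, at 12.5 to 15.2 CPM in mutant and 12.7 to 16.1 CPM in Tak-1 libraries. MpNOP1, needed for air pores in Marchantia, was lower in the mutant (152, 173 and 172 CPM, against 233, 212 and 215 CPM in Tak-1, log2 fold change -0.41 ± 0.06 SE, adjusted p = 0.00113). MpKAR, grouped here with MpNOP1, went the other way, at 22.6 to 27.4 CPM in mutant and 16.3 to 22.4 CPM in Tak-1 libraries. It was not called by edgeR's quasi-likelihood test (adjusted p = 0.0666), but was with upper-quartile scaling (0.0375) and by DESeq2 (0.0376). The part of tissue composition in the results below was not tested. In bulk tissue, fewer cells of a type and less RNA per cell cannot be told apart. Genes of the male V chromosome took 0.308 to 0.392% of the counts of mutant and 0.304 to 0.397% of those of Tak-1 libraries.

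A total of 1996 genes, 14.5% of those tested, differed between wounded mutant and wounded Tak-1 plants at an adjusted p under 0.05 (edgeR's quasi-likelihood test, Benjamini-Hochberg adjustment over all tested genes). Of these, 1305 were lower in the mutant (9.51% of tested genes) and 691 were higher (5.03%). Most differences were small, with a median absolute log2 fold change of 0.55, and 1055 of the called genes changed by less than 1.5-fold. At 2-fold and above the lower genes prevailed, with 413 lower (3.01%) and 80 higher (0.583%), 493 in all (3.59%). The 3 mutant libraries lay entirely below the 3 Tak-1 libraries for 17.3% of tested genes and entirely above them for 14.3%. At 8-fold and above there were 23 lower and 13 higher genes. The median log2 fold change of all tested genes was 0.005. Upper-quartile scaling of the libraries moved this median to 0.06 and turned the split of calls to 1151 lower and 1263 higher. Without mutant library 1 the number of called genes was 1158, of which 815 were lower, and without both mutant libraries A and B it was 887, of which 652 were lower.

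**Figure D1:**
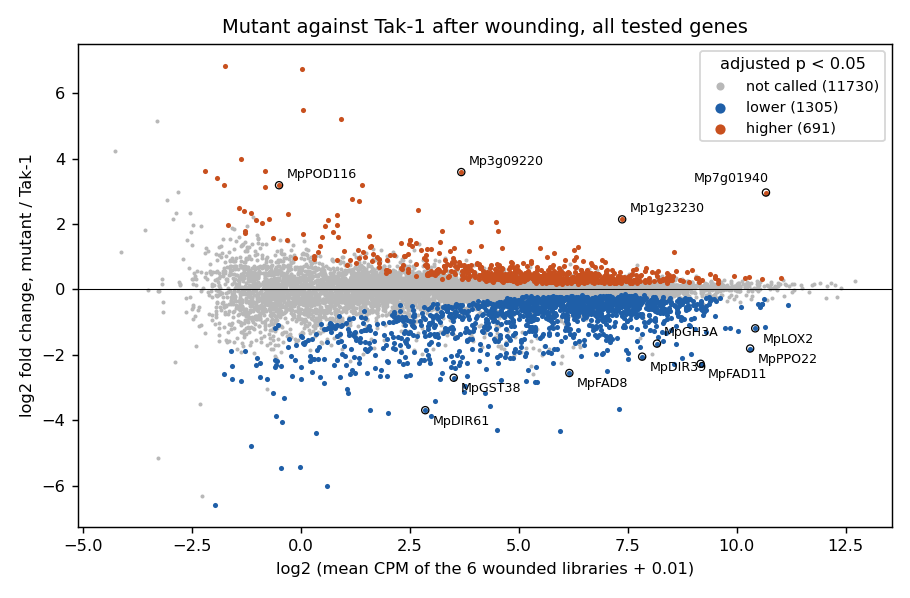
The log2 fold change of each tested gene (vertical axis, mutant over Tak-1, both wounded) is plotted against the log2 of its mean CPM over the 6 wounded libraries (horizontal axis). Coloured points are the 1305 lower and 691 higher genes, and among abundant genes Mp7g01940 stands well above 0 while MpFAD11, MpPPO22 and MpLOX2 lie below it. The size of a fold change is not meaningful for genes with 3 reads or fewer in a group, which are drawn here but not labelled.

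The desaturases themselves were split between a few strongly lower genes and a majority without a call. Of 14 desaturase genes tested, 3 were lower and 1 was higher in the wounded mutant, and 10 were not called. Called members made up 28.6%, against 14.5% of all tested genes, and the median log2 fold change of the 14 was 0.05. The higher count was 3 with upper-quartile scaling, 2 by DESeq2 and 0 when the wounded libraries were fitted alone. MpFAD11 had 180.5, 193 and 219 CPM in mutant libraries, against 838, 1029.8 and 997 CPM in Tak-1 libraries. Every mutant library lay far below every Tak-1 library, and the log2 fold change was -2.27 ± 0.10 (SE; adjusted p = 1.35e-07). MpFAD8 was at 21.1, 20.1 and 20.9 CPM in the mutant and 115, 118 and 133 CPM in Tak-1 (log2 fold change -2.56 ± 0.23 SE, adjusted p = 1.99e-05). MpFAD6 was at 21.2, 27.9 and 23.6 CPM in the mutant and 72.3, 47.6 and 54.8 CPM in Tak-1, again without overlap (log2 fold change -1.27 ± 0.27 SE, adjusted p = 0.00732, and 0.0832 without mutant libraries A and B). These names follow the reference gene table, and which acyl position each of these enzymes acts on in Marchantia is not given in the files.

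Transcripts of the genes in the mutant's name were not lower. The titles name FAD3 and FAD7 and the protocol DES6 and FAD5; the reference table lists MpFAD7 as another name of MpDES5 and MpFAD12 as another name of MpDES6, so 4 genes were examined. MpFAD3 had 248, 254 and 236 CPM in the wounded mutant and 219.7, 210.1 and 237 CPM in wounded Tak-1 (log2 fold change 0.15, adjusted p = 0.127). MpDES5 had 194, 206 and 201 CPM in the mutant, against 180.1, 171 and 177 CPM in Tak-1, a difference of 0.19 on the log2 scale that was called (adjusted p = 0.0368) but lost with any 1 of the 6 wounded libraries left out (0.0513 to 0.117). MpDES6 (45.5, 45.8 and 42.7 CPM in the mutant, 44.6, 30.4 and 38.9 CPM in Tak-1) and MpFAD5 (339, 378 and 338 CPM in the mutant, 349, 373 and 359 CPM in Tak-1) overlapped between the genotypes and were not called (adjusted p = 0.270 for MpDES6 and 0.833 for MpFAD5). Transcript counts do not show whether the sequence of these genes is altered, so they do not check the genotype. The remaining MpFAD1, MpFAD2, MpFAD4, MpFAD9, MpFAD10, MpFAD13 and MpFAD14 had log2 fold changes of at most 0.28 in size and adjusted p-values of 0.0692 and above.

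In oxylipin synthesis, 7 of 17 lipoxygenase and CYP74 genes tested were lower in the wounded mutant, none was higher and 10 were not called, and their median log2 fold change was -0.73, against 0.005 for all tested genes. Called members made up 41.2%, against 14.5% of all tested genes. Summed over the 17, transcripts amounted to 2572, 2562 and 3022 CPM in mutant libraries and 4924, 5677 and 4982 CPM in Tak-1 libraries. The lipoxygenase MpLOX2 had 757, 787 and 966 CPM in the mutant, against 1714, 2116 and 1894 CPM in Tak-1. Its log2 fold change was -1.19 ± 0.10 (SE; adjusted p = 1.48e-05). MpLOX14 had 210.2, 222 and 202 CPM in the mutant, against 591, 469.5 and 452 CPM in Tak-1 (log2 fold change -1.26 ± 0.10 SE, adjusted p = 6.93e-06). The largest difference of the group was in MpLOX4, at 69.5, 59.8 and 96.6 CPM in the mutant and 212, 333 and 279 CPM in Tak-1 (log2 fold change -1.87 ± 0.24 SE, adjusted p = 0.000243). In none of these genes did the genotypes overlap.

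Further lipoxygenases were lower at lower levels. MpLOX3 stood at 7.18, 11.2 and 8.98 CPM in the mutant, against 41.8, 22.9 and 25.9 CPM in Tak-1 (adjusted p = 0.00483, and 0.0581 without mutant libraries A and B). MpLOX8 stood at 14.7, 16.1 and 23.0 CPM in the mutant and 25.3, 37.3 and 35.0 CPM in Tak-1 (adjusted p = 0.0457). Omitting Tak-1 library 2 or 3, or mutant library 1 or A, ended that call. MpLOX10, which is abundant in both genotypes, overlapped between them (667, 473 and 632 CPM in the mutant, 559.9, 772 and 664 CPM in Tak-1; adjusted p = 0.519). MpLOX1 was above Tak-1 in every mutant library (223, 326 and 240.1 CPM, against 206, 128 and 133 CPM) but was not called (adjusted p = 0.0735). Without Tak-1 library 1 or 3, 1 gene of the list was called higher. A fit of the wounded libraries alone called MpLOX1 higher, DESeq2 called MpLOX12 higher, and upper-quartile scaling gave both calls. The lower count was 10 with the wounded libraries alone, 8 by DESeq2 and 6 with upper-quartile scaling. In the reported fit MpLOX5, MpLOX6, MpLOX7, MpLOX9, MpLOX11, MpLOX12, MpLOX13 and MpLOX16 were not called, with log2 fold changes between -1.27 and 1.16.

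Both CYP74 genes, whose P450 family includes allene oxide synthases of other plants, were lower. MpCYP74N2 had 522, 577 and 745 CPM in the mutant, against 1439.6, 1642 and 1341 CPM in Tak-1 (log2 fold change -1.26 ± 0.12 SE, adjusted p = 2.46e-05). MpCYP74N1 had 54.5, 49.3 and 66.3 CPM in the mutant, against 81.2, 106 and 96.2 CPM in Tak-1 (log2 fold change -0.73 ± 0.13 SE, adjusted p = 0.00249). The highest mutant library remained below the lowest Tak-1 library in each.

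**Figure D2:**
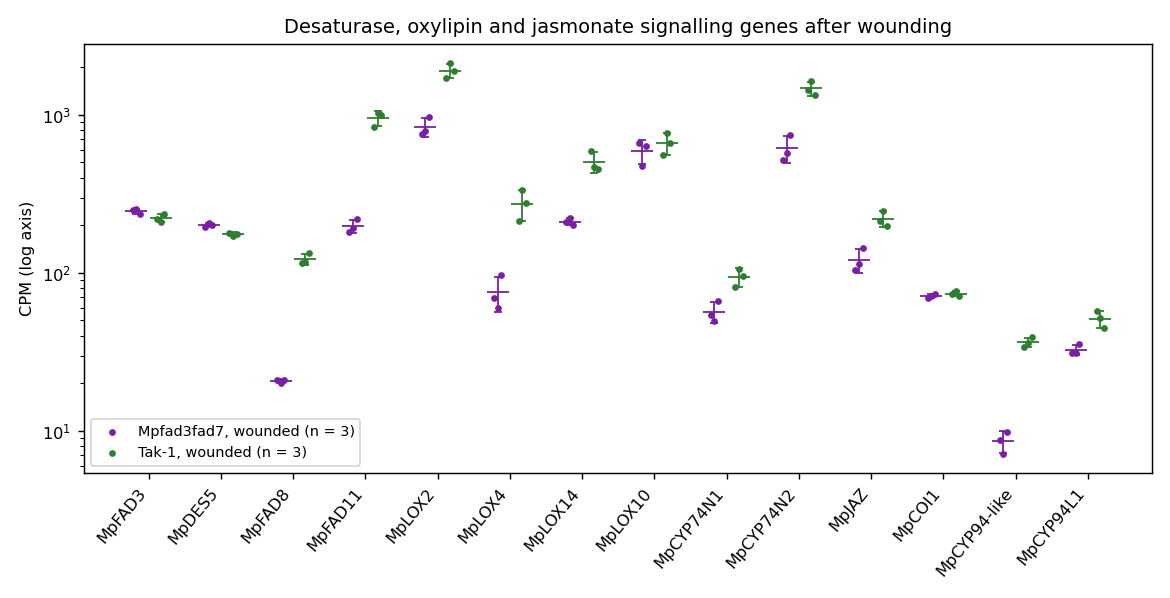
CPM on a log axis of 14 desaturase, oxylipin and jasmonate signalling genes in wounded plants, with points for single libraries and bars for the mean and SD of 3 mutant libraries (left of each pair) and 3 Tak-1 libraries (right). MpFAD8, MpFAD11, MpLOX2, MpLOX4, MpLOX14, both CYP74 genes, MpJAZ and both CYP94 genes have all mutant points below all Tak-1 points, while MpLOX10 and MpCOI1 overlap.

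In jasmonate signalling, 4 of 6 genes tested were lower in the wounded mutant and none was higher, with a median log2 fold change of -0.42. Called members made up 66.7%, against 14.5% of all tested genes. MpJAZ, the repressor whose own gene is a target of the pathway, had 104, 113 and 144 CPM in the mutant and 214, 247 and 199 CPM in Tak-1 (log2 fold change -0.87 ± 0.11 SE, adjusted p = 0.000213). MpCYP94-like belongs to a P450 family that oxidises jasmonoyl-isoleucine in Arabidopsis. It had 8.71, 7.19 and 9.84 CPM in the mutant, against 34.1, 35.9 and 39.2 CPM in Tak-1 (log2 fold change -2.08 ± 0.17 SE, adjusted p = 9.29e-06). MpCYP94L1 of the same family had 31.2, 31.2 and 35.5 CPM in the mutant and 57.5, 51.8 and 44.6 CPM in Tak-1 (log2 fold change -0.65 ± 0.12 SE, adjusted p = 0.00239). The adaptor MpNINJA differed by -0.19 on the log2 scale (adjusted p = 0.0281), a call lost without any 1 of 5 wounded libraries (all but mutant library B). The receptor MpCOI1 (69.9, 71.5 and 74.02 CPM in the mutant, 73.7, 76.3 and 71.3 CPM in Tak-1) and the co-repressor MpTPL (118, 107 and 112 CPM in the mutant, 119, 116 and 107 CPM in Tak-1) overlapped between genotypes and were not called (adjusted p = 0.691 for MpCOI1 and 0.857 for MpTPL).

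Of 37 lipid genes outside the desaturases, 4 were lower and 5 higher, against 9.51% lower and 5.03% higher over all tested genes, and 28 were not called (median -0.04). MpMGDG, of the synthases of the chloroplast galactolipid MGDG, was at 153, 153 and 162 CPM in the mutant and 205, 256 and 246 CPM in Tak-1 (log2 fold change -0.59 ± 0.08 SE, adjusted p = 0.000448). MpGPAT6b, a glycerol-phosphate acyltransferase by its symbol, was at 52.7, 58.0 and 58.0 CPM in the mutant and 105, 95.2 and 101 CPM in Tak-1 (log2 fold change -0.84 ± 0.07 SE, adjusted p = 6.81e-06). Lipid transfer protein genes stood on both sides. MpLTP-like65 was lower (32.7, 31.7 and 24.4 CPM in the mutant, 74.97, 69.6 and 78.3 CPM in Tak-1; adjusted p = 2.05e-05) and MpLTP-like68 higher (50.6, 58.5 and 41.6 CPM in the mutant, 31.5, 25.8 and 25.6 CPM in Tak-1; adjusted p = 0.00117).

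**Figure D3:**
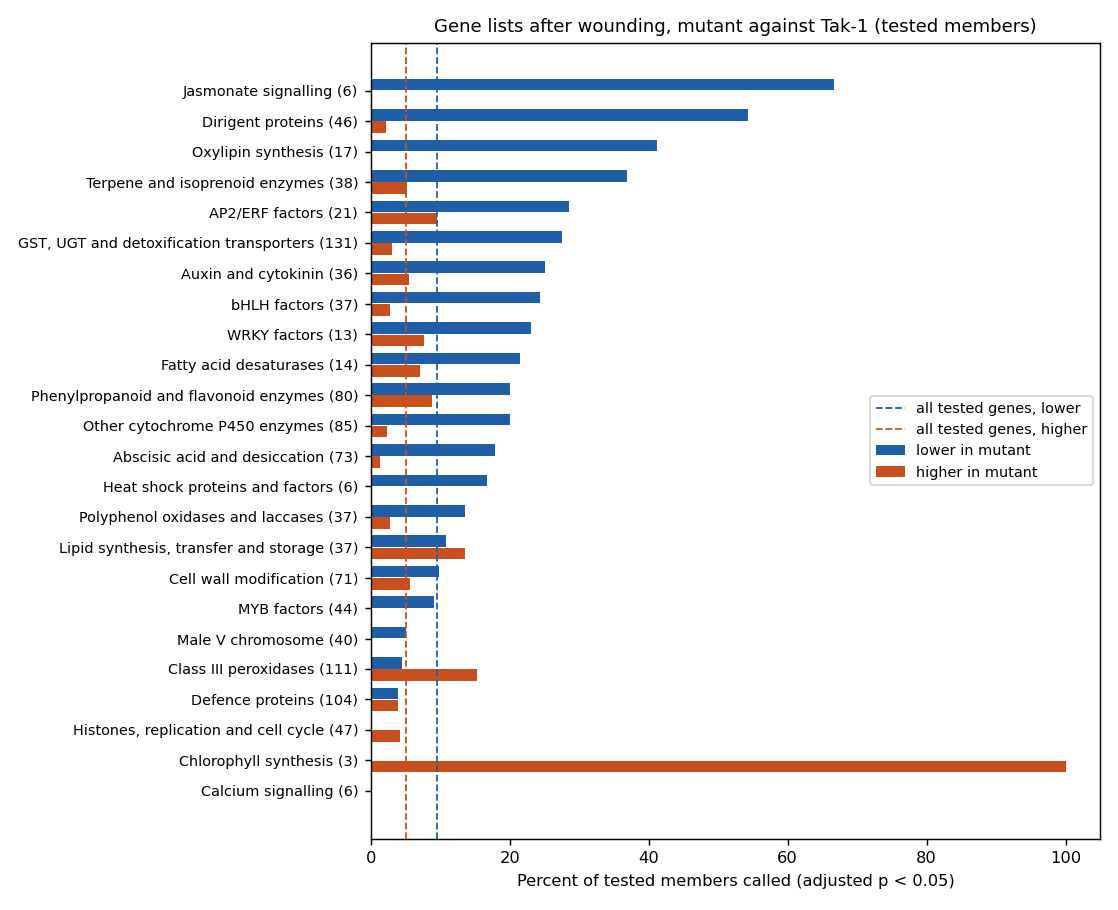
Bars give the percent of each list's tested members (numbers in brackets) called lower (blue) or higher (orange) in the wounded mutant, and dashed lines give the share of all tested genes, 9.51% lower and 5.03% higher. Jasmonate signalling, dirigent proteins, oxylipin synthesis and terpene enzymes have the largest lower shares; class III peroxidases have a higher share above the line and a lower share below it; the chlorophyll list has only 3 members.

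Without mutant libraries A and B, counts of lower members were 16 for dirigent proteins, 5 for phenylpropanoid and flavonoid genes, 8 each for terpene enzymes, other P450 enzymes and the desiccation list, 21 for detoxification genes, 3 for polyphenol oxidases and laccases, 3 for AP2/ERF factors, 5 for auxin and cytokinin genes, 4 for cell wall genes, 2 each for defence genes, MYB factors and class III peroxidases, and 0 for WRKY and V chromosome genes. Counts of higher members were then 2 for lipid genes, 1 each for defence, cell wall and AP2/ERF genes, 3 for auxin and cytokinin genes, 2 for bHLH factors, 1 for MYB factors, and 0 for desaturases, dirigent proteins, polyphenol oxidases and laccases, terpene enzymes, WRKY factors, chlorophyll synthesis and histone, replication and cell cycle genes. Each of these differs by at least 1.5 times from the count with all libraries. Fitted alone, the 6 wounded libraries gave 7 lower defence genes, 3 lower peroxidases, 2 higher WRKY factors, 2 higher dirigent genes, 1 higher gene each among terpene enzymes and other P450 enzymes, and no higher polyphenol oxidase or laccase.

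Of 80 phenylpropanoid and flavonoid genes tested, 16 were lower and 7 higher (median -0.10), where 9.51% of all tested genes were lower and 5.03% higher. The lower count was 8 without mutant library 1 or without B, and 9 without Tak-1 library 1; the higher count was 4 without mutant library 1. Both coumarate-CoA ligases, which activate cinnamic acids, were lower. Mp4CL2 had 491, 546 and 669 CPM in the mutant, against 1157, 1467 and 1224 CPM in Tak-1 (log2 fold change -1.17 ± 0.11 SE, adjusted p = 2.27e-05), and Mp4CL1 had 162, 174 and 231 CPM in the mutant, against 361, 407 and 316 CPM in Tak-1 (log2 fold change -0.93 ± 0.13 SE, adjusted p = 0.000334). Of 10 phenylalanine ammonia-lyase genes, which open the pathway, 3 were lower and none was higher. Among 24 polyketide synthases of the chalcone synthase family, 4 were lower and 2 higher. MpPKS/CHS17 was lower (1.57, 3.74 and 3.81 CPM in the mutant, 13.2, 11.3 and 11.6 CPM in Tak-1; adjusted p = 0.000978), whereas MpPKS/CHS6 was higher (13.3, 9.70 and 10.4 CPM in the mutant, 3.32, 5.36 and 5.50 CPM in Tak-1; adjusted p = 0.00654). MpCHS-like was also higher, at 3.35, 4.23 and 4.17 CPM in the mutant and 0.559, 0.686 and 0.484 CPM in Tak-1 (log2 fold change 2.75 ± 0.38 SE, adjusted p = 0.000389).

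Dirigent proteins, which steer the coupling of phenoxy radicals into lignans, held 25 lower members and 1 higher one among 46 tested, 19 of the lower ones by at least 2-fold, and the median log2 fold change was -0.42. Called members made up 56.5% of the list, against 14.5% of all tested genes. With 1 wounded library left out, the lower count was 19 to 22. Summed over the 46 genes, transcripts amounted to 2397, 2541 and 2665 CPM in mutant libraries and 4948, 5184 and 4342 CPM in Tak-1 libraries. MpDIR17, the most abundant of the called members, had 975, 878 and 1120.0 CPM in the mutant and 2112, 2496 and 2033 CPM in Tak-1 (log2 fold change -1.16 ± 0.11 SE, adjusted p = 2.48e-05). MpDIR39 had 64.5, 98.0 and 102 CPM in the mutant, against 344, 438 and 318 CPM in Tak-1 (log2 fold change -2.06 ± 0.17 SE, adjusted p = 1.18e-05). MpDIR58 had 2.26, 4.48 and 1.65 CPM in the mutant, against 35.1, 21.1 and 15.8 CPM in Tak-1 (adjusted p = 0.000268). Members with a few reads in the mutant showed the widest gaps: MpDIR61 had 0.875, 0.985 and 1.22 CPM in the mutant and 12.1, 14.9 and 13.2 CPM in Tak-1, MpDIR1 had 0.328, 0.197 and 0.719 CPM in the mutant and 5.802, 4.63 and 6.33 CPM in Tak-1, and MpDIR57 had 0.146, 0 and 0.0719 CPM in the mutant and 1.05, 1.63 and 1.45 CPM in Tak-1 (adjusted p = 8.28e-06, 0.000243 and 0.00351). MpDIR42 had 3 reads over the 3 mutant libraries and 222 over the 3 Tak-1 libraries (adjusted p = 0.000826). MpDIR28 was the higher member, in a call lost without any 1 of 5 wounded libraries (all but Tak-1 library 1). How the counting treated reads that match several members of a gene family is not stated in the labels, and its effect on the values of single dirigent, peroxidase, LEA and polyphenol oxidase genes was not tested.

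Neighbouring genes of the reference assembly that were called in the same direction by at least 2-fold, at least 4 in a row among tested genes, formed 5 runs. A pair of these runs were dirigent genes. On chromosome 3, MpDIR48, MpDIR47, MpDIR46, MpDIR45, MpDIR44 and MpDIR64 had log2 fold changes of -1.65, -1.95, -1.59, -2.79, -2.78 and -2.84, and all 6 were also lower in mutant mock plants, with log2 fold changes of -1.45 to -2.90. MpDIR64, for example, had 8.31, 13.2 and 9.09 CPM in the wounded mutant, against 89.1, 67.5 and 61.4 CPM in wounded Tak-1. On chromosome 5, MpDIR65, MpDIR61, MpDIR42, MpDIR41 and MpDIR39 were lower, and these genes were nearly silent in mock plants: MpDIR39 had 0.0773, 0.106 and 0.166 CPM in mutant and 0.483, 0.287 and 0.812 CPM in Tak-1 mock libraries, and MpDIR61 had 0 reads in mutant and 1 in Tak-1 mock libraries. MpDIR65, MpDIR41 and MpDIR42 had 0 reads in all mock libraries, so no fold change exists for them there.

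The other 3 runs were of different kinds. On chromosome 4, Mp4g03330, Mp4g03340, Mp4g03350 and Mp4g03360, which carry no symbol, were lower, with log2 fold changes of -2.73, -1.93, -1.93 and -2.46; the first 3 were not called in mock and Mp4g03360 had 0 reads in all mock libraries. Mp4g03350 had 16.2, 20.8 and 26.2 CPM in the mutant, against 78.3, 81.7 and 80.2 CPM in Tak-1. On chromosome 6, MpLEAL3, MpLEA-like34, MpLEA-like35 and MpLEA-like36 were lower, with log2 fold changes of -1.85, -2.13, -1.66 and -2.01, and of these only MpLEA-like34 kept its call with each wounded library left out. All 4 were lower in mutant mock plants too, with log2 fold changes of -3.65, -2.83, -4.09 and -3.50 (adjusted p = 0.0204, 0.0457, 0.00710 and 0.0176). On chromosome 3, 8 neighbours were higher, among them MpNBS-LRR6, of the family of intracellular immune receptors, and MpNPF9, of the nitrate and peptide transporter family. MpNBS-LRR6 had 2.84, 4.63 and 5.53 CPM in the mutant, against 0.175, 1.07 and 0.791 CPM in Tak-1 (adjusted p = 0.00451, and 0.126 without mutant libraries A and B). The most abundant of the 8, Mp3g09220, had 23.7, 20.3 and 26.9 CPM in the mutant, against 1.29, 2.49 and 2.15 CPM in Tak-1. Mp3g09220 and its neighbours Mp3g09160, Mp3g09180, Mp3g09190, Mp3g09210 and Mp3g09230 were called higher in mutant mock plants as well, but MpNBS-LRR6 and MpNPF9 were not (adjusted p = 0.0815 and 0.409), and MpNPF9 lost its call after wounding without Tak-1 library 1 or 3 or mutant library 1 or B.

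**Figure D4:**
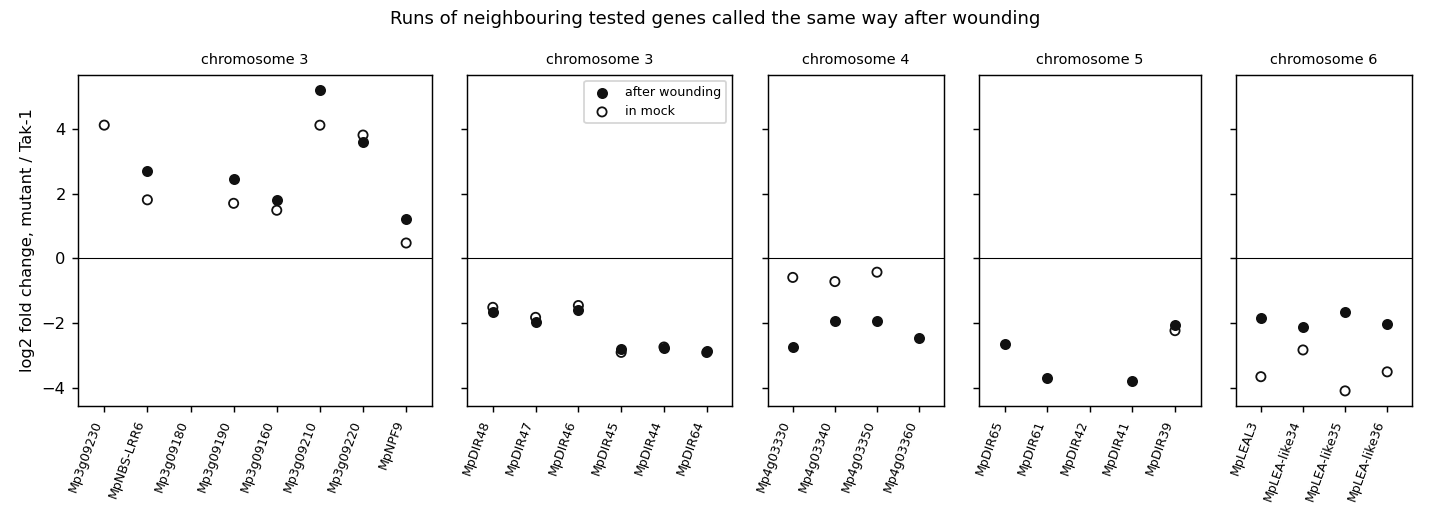
For each gene in the 5 runs, the mutant to Tak-1 difference (log2) is shown in the order of the reference assembly, after wounding (filled points) and in mock (open points). A point is left out where either group of its condition had 3 reads or fewer in total, which removes the filled points of Mp3g09230, Mp3g09180 and MpDIR42. In the 2 runs of chromosome 3 and in that of chromosome 6 the plotted points lie on the same side of 0 in both conditions, and filled points lie below open ones in the run of chromosome 4.

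Polyphenol oxidases and laccases, which oxidise phenols, held 5 lower members and 1 higher one among 37 tested (median -0.05), 16.2% called in all, against 14.5% of all tested genes. MpPPO22 had 515, 558 and 615 CPM in the mutant, against 1831, 2067 and 2008 CPM in Tak-1 (log2 fold change -1.81 ± 0.11 SE, adjusted p = 1.69e-06). MpPPO20 had 55.0, 45.8 and 67.0 CPM in the mutant, against 210.4, 198 and 205 CPM in Tak-1 (log2 fold change -1.87 ± 0.13 SE, adjusted p = 3.37e-06). MpPPO31, with 0 reads in all mock libraries, had 6.34, 13.1 and 12.2 CPM in the wounded mutant and 28.1, 55.3 and 51.4 CPM in wounded Tak-1 (adjusted p = 0.00317). MpPPO42 and MpPPO70 were the remaining lower members, and MpPPO10 was the higher one, a call lost without any 1 of 5 wounded libraries (all but mutant library A).

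Class III peroxidases, secreted enzymes that use hydrogen peroxide on cell wall phenolics, held 17 higher and 5 lower members among 111 tested, 14 of the higher ones by at least 2-fold, and the median log2 fold change was 0.37. Called members made up 19.8% of the list, against 14.5% of all tested genes. Leaving out mutant library 1 left 10 higher and none lower, and the lower count was 1 without Tak-1 library 2 and 3 without Tak-1 library 1 or mutant library A. Most of the higher members had levels below 10 CPM in Tak-1. MpPOD116 had 1.39, 1.13 and 1.26 CPM in the mutant, against 0.140, 0.129 and 0.132 CPM in Tak-1 (log2 fold change 3.19 ± 0.56 SE, adjusted p = 0.00215). Its Tak-1 values lie at or near 3 reads (0.105, 0.129 and 0.132 CPM in these libraries), so the size of this change rests on few reads. MpPOD88 had 8.20, 10.9 and 6.11 CPM in the mutant, against 2.94, 3.09 and 2.86 CPM in Tak-1 (log2 fold change 1.4999 ± 0.22 SE, adjusted p = 0.000532). MpPOD121 had 9.59, 7.53 and 7.15 CPM in the mutant, against 2.41, 3.35 and 3.52 CPM in Tak-1 (log2 fold change 1.40 ± 0.21 SE, adjusted p = 0.000703). In each of these, all mutant libraries exceeded all Tak-1 libraries. MpPOD47, MpPOD92, MpPOD122 and MpPOD126 were likewise higher (log2 fold changes 1.34, 1.63, 1.23 and 1.97), while MpPOD60 lost its call without any 1 of 5 wounded libraries (all but mutant library A) and MpPOD112 without any 1 of 4 (Tak-1 libraries 1 and 2, mutant libraries 1 and A). Chromosome 5 held 13 of the 17 higher peroxidases and 58 of the 111 tested ones. The lower members included MpPOD148, the only called peroxidase of the list above 100 CPM, at 158, 169 and 161 CPM in the mutant and 276, 216 and 168 CPM in Tak-1 (adjusted p = 0.0480, lost without any 1 of 5 wounded libraries, all but Tak-1 library 3), and MpPOD18 (adjusted p = 0.0131, lost without mutant library 1).

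Of 38 terpene and isoprenoid genes, 14 were lower and 2 higher (median -0.29), 42.1% called in all, against 14.5% of all tested genes. The lower count was 9 without mutant library 1, and none was higher without Tak-1 library 1 or 3 or mutant library 1 or A. MpSQC2, of a squalene cyclase family, had 1.28, 1.87 and 1.65 CPM in the mutant, against 11.1, 7.85 and 10.1 CPM in Tak-1 (log2 fold change -2.61 ± 0.25 SE, adjusted p = 2.64e-05), and MpSQC1 was lower too (log2 fold change -2.41 ± 0.38 SE, adjusted p = 0.000979). Of the P450 genes named after kaurene and kaurenoic acid oxidation, MpKAOL2, MpKAOL1, MpKOL1 and MpKOL3 were lower. MpKAOL2 had 3.06, 4.48 and 3.41 CPM in the mutant, against 16.9, 14.5 and 16.6 CPM in Tak-1 (adjusted p = 6.00e-05), and MpKOL1 had 13.0, 9.95 and 12.1 CPM in the mutant, against 26.7, 28.5 and 25.5 CPM in Tak-1 (adjusted p = 5.40e-05). The terpene synthases of liverwort-type families gave a mixed picture: MpFTPSL2 and MpMTPSL-like were lower (log2 fold changes -1.60 and -1.47), MpMTPSL1 was higher by 0.39 (lost without Tak-1 library 1 or 3 or mutant library 1 or A), and the 6 genes whose symbol begins with TPS had adjusted p-values of 0.205 and above. The mevalonate pathway genes MpHMGS, MpMVD and MpIDI1 differed by -0.44, -0.35 and -0.21, each called, but MpHMGS lost its call without Tak-1 library 2 or mutant library 1 or A, MpMVD without Tak-1 library 3 or mutant library 1 or B, and MpIDI1 with any wounded library but Tak-1 library 3 left out.

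Detoxification genes, the list with the most tested members, also held the most lower genes by number. Of 131 glutathione transferases, glycosyltransferases and transporters of the MATE, ABCB, ABCC and ABCG families tested, 36 were lower and 4 higher (median -0.15), or 8 higher with upper-quartile scaling. Called members made up 30.5% of the list, against 14.5% of all tested genes, of which 9.51% were lower and 5.03% higher. The lower members spread over all families: 11 of 32 glutathione transferases, 5 of 31 UDP-glycosyltransferases, 6 of 13 MATE, 3 of 10 ABCB, 4 of 15 ABCC and 7 of 30 ABCG transporters. MpGST38 had 2.33, 3.69 and 3.09 CPM in the mutant, against 21.5, 16.4 and 21.1 CPM in Tak-1 (log2 fold change -2.70 ± 0.21 SE, adjusted p = 6.46e-06). MpABCC15, whose family carries conjugates into the vacuole, had 277, 334 and 332 CPM in the mutant, against 775, 745 and 682 CPM in Tak-1 (log2 fold change -1.22 ± 0.08 SE, adjusted p = 1.79e-06). MpABCB6 had 149, 159 and 237 CPM in the mutant, against 416, 571 and 351 CPM in Tak-1 (adjusted p = 0.000522). None of the 3 overlapped between genotypes. MpUGT35 and MpMATE4 were lower, with log2 fold changes of -1.49 and -1.39 (adjusted p = 0.00131 and 1.07e-05). The higher members were small in effect, MpGST27 among them (log2 fold change 0.52, a call lost without any 1 of 5 wounded libraries, all but Tak-1 library 1).

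P450 genes outside the lists above were lower in 17 of 85 cases and higher in 2 (median -0.19), 22.4% called in all, against 14.5% of all tested genes. The higher count was 0 or 1 without any 1 wounded library. MpCYP815A1 had 291, 349.7 and 447 CPM in the mutant, against 837, 1088 and 746 CPM in Tak-1 (log2 fold change -1.30 ± 0.23 SE, adjusted p = 0.00213). MpCYP97A35, from a family of carotenoid hydroxylases in flowering plants, had 216, 228 and 270.0 CPM in the mutant, against 409.9, 494 and 418 CPM in Tak-1 (adjusted p = 5.78e-05). MpCYP710A16, from the sterol desaturase family CYP710, had 236, 338 and 304 CPM in the mutant, against 537, 507 and 495 CPM in Tak-1 (adjusted p = 0.00115).

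Of 37 bHLH transcription factor genes, 9 were lower and 1 higher (median 0.03), 27% called in all, against 14.5% of all tested genes. The higher count was 3 without Tak-1 library 2, 2 by DESeq2 and 5, beside 8 lower, with upper-quartile scaling. MpBHLH4 had 70.5, 102 and 130.4 CPM in the mutant, against 326, 390.4 and 302 CPM in Tak-1 (log2 fold change -1.75 ± 0.17 SE, adjusted p = 3.48e-05). MpBHLH4, MpBHLH3 and MpBHLH2 lie on chromosome 2 under close gene numbers (Mp2g00930, Mp2g00910 and Mp2g00890). MpBHLH2 and MpBHLH3 had log2 fold changes of -1.24 ± 0.17 and -1.25 ± 0.15 (SE). MpBHLH51 was at 84.2, 110.1 and 125 CPM in the mutant and 257, 261 and 196 CPM in Tak-1 (adjusted p = 0.000354), and MpBHLH1 at 46.5, 44.0 and 51.2 CPM in the mutant and 83.4, 93.0 and 93.1 CPM in Tak-1 (adjusted p = 7.13e-06). MpBHLH32 was the higher one (log2 fold change 0.50 ± 0.08 SE, adjusted p = 0.00144).

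Of 21 AP2/ERF genes, 6 were lower and 2 higher (median -0.05), 38.1% called in all, against 14.5% of all tested genes. MpERF15, known in Marchantia for its part in regeneration after wounding, had 43.0, 56.4 and 78.4 CPM in the mutant, against 159, 176 and 132 CPM in Tak-1 (log2 fold change -1.39 ± 0.18 SE, adjusted p = 0.000243). MpERF7 had 35.3, 41.3 and 48.8 CPM in the mutant, against 89.5, 104 and 85.3 CPM in Tak-1 (adjusted p = 0.000911). MpERF20 was lower at a low level (1.09, 0.689 and 0.862 CPM in the mutant, 3.50, 2.74 and 1.85 CPM in Tak-1; adjusted p = 0.00801, and 0.201 without mutant libraries A and B). MpERF17 ran against these, at 8.90, 11.1 and 7.15 CPM in the mutant and 2.97, 2.53 and 4.66 CPM in Tak-1 (log2 fold change 1.42 ± 0.27 SE, adjusted p = 0.00415). Among 13 WRKY genes, 3 were lower and 1 higher (median -0.20), 30.8% called in all, against 14.5% of all tested genes. Without mutant library 1, 1 was lower. MpWRKY5 was at 66.0, 64.1 and 73.4 CPM in the mutant and 95.2, 98.8 and 80.9 CPM in Tak-1 (adjusted p = 0.00469), and MpWRKY3 at 6.86, 10.2 and 8.08 CPM in the mutant and 4.44, 1.97 and 2.24 CPM in Tak-1, a call lost without any 1 of 5 wounded libraries (all but Tak-1 library 1). Of 44 MYB genes 4 were lower and none higher (median -0.01), 9.09% called in all, against 14.5% of all tested genes. There were 2 lower without Tak-1 library 3, mutant library 1 or mutant library A, and 3 lower and 2 higher under upper-quartile scaling. Mp1R-MYB16 was at 43.1, 45.9 and 48.8 CPM in the mutant and 70.4, 87.1 and 85.9 CPM in Tak-1 (log2 fold change -0.82 ± 0.09 SE, adjusted p = 6.80e-05). MpBELL3, a homeodomain gene higher in the mutant (1.39, 2.95 and 2.66 CPM, against 0.769, 0.600 and 0.396 CPM in Tak-1), lost its call without any 1 of 5 wounded libraries (all but mutant library 1).

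Auxin and cytokinin genes were lower in 9 of 36 cases and higher in 2 (median -0.12), 30.6% called in all, against 14.5% of all tested genes. The higher count was 1 without mutant library 1, and 5 with upper-quartile scaling and by DESeq2. MpGH3A, from the family that joins plant hormones to amino acids, had 114, 132 and 169 CPM in the mutant, against 384, 466 and 461 CPM in Tak-1 (log2 fold change -1.66 ± 0.13 SE, adjusted p = 6.46e-06). The auxin transporter genes MpPIN4, MpPIN3 and MpPIN1 were lower, with log2 fold changes of -1.49, -0.57 and -0.55. MpPIN4 had 7.84, 16.2 and 13.5 CPM in the mutant, against 44.8, 32.2 and 27.3 CPM in Tak-1 (adjusted p = 0.00110). The auxin synthesis gene MpYUC2 was higher, at 10.5, 8.96 and 7.83 CPM in the mutant and 6.08, 4.03 and 6.02 CPM in Tak-1 (adjusted p = 0.00845).

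Genes of abscisic acid and desiccation had a low median of -0.80 over 73 tested, with 13 lower and 1 higher (19.2% called, against 14.5% of all tested genes). In mock plants the median of the list was lower still, at -1.97. The lower count after wounding depends on the libraries: it was 5 without mutant library 1, 7 without B, 8 without Tak-1 library 1 or 2, and 38 when the 6 wounded libraries were fitted alone. Of 61 late embryogenesis abundant (LEA) genes, which protect drying cells, 11 were lower and 1 higher. MpLEA-like34 had 1.57, 4.23 and 2.77 CPM in the mutant, against 13.9, 14.7 and 8.44 CPM in Tak-1 (log2 fold change -2.13 ± 0.42 SE, adjusted p = 0.00490). Summed over the 73 genes, transcripts amounted to 3442, 4043 and 3807 CPM in mutant libraries and 5321, 5510.0 and 5184 CPM in Tak-1 libraries, without overlap. MpSNRK2A, a kinase of the abscisic acid pathway, had 445, 443 and 498 CPM in the mutant, against 735, 725 and 621 CPM in Tak-1 (adjusted p = 0.000195). MpLEA-like11 was higher (146, 143 and 166 CPM in the mutant, 109, 110.1 and 91.4 CPM in Tak-1; adjusted p = 0.00845, and 0.133 without mutant libraries A and B).

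Of 104 defence genes, 4 were lower and 4 higher (median 0.04), 7.69% called in all, against 14.5% of all tested genes; 2 were lower without mutant library 1, and DESeq2 called 7 lower and 6 higher. The chitinase-family gene MpGH19.13 was higher, at 34.7, 28.4 and 40.0 CPM in the mutant and 14.6, 15.7 and 12.6 CPM in Tak-1 (log2 fold change 1.27 ± 0.22 SE, adjusted p = 0.00182), and MpGH19.14 was lower in a call lost without Tak-1 library 1 or 3 or mutant library 1 or A. Of 6 heat shock genes, 1 was lower and none higher (median -0.18), 16.7% called in all, against 14.5% of all tested genes. The called gene, MpHSP90-1, was at 468, 472 and 476 CPM in the mutant and 717, 669.8 and 671 CPM in Tak-1 (log2 fold change -0.54 ± 0.06 SE, adjusted p = 5.78e-05). The lower count was 3 without Tak-1 library 2 and 2 by DESeq2. Of 71 cell wall genes, 7 were lower and 4 higher (median 0.09), 15.5% called in all, against 14.5% of all tested genes. The higher count was 1 without Tak-1 library 2 or mutant library 1, and 7 without Tak-1 library 3 and by DESeq2. MpExpansin14, of the wall-loosening expansins, was lower (6.42, 10.9 and 7.98 CPM in the mutant, 24.5, 14.5 and 22.4 CPM in Tak-1; adjusted p = 0.00572), and MpGH16.30 was higher in a call lost without Tak-1 library 1 or 2 or mutant library 1 or B. Among 6 calcium signalling genes (median 0.00) the lowest adjusted p was 0.0790, for MpCML42, and 1 gene was called lower without Tak-1 library 3 or mutant library B, and 1 by DESeq2. Of 47 histone, replication and cell cycle genes, 2 were higher (median 0.19), 4.26% called in all, against 14.5% of all tested genes. MpCDC14 is among the higher ones (log2 fold change 0.34). Their count was 1 without Tak-1 library 2 and 0 without mutant library 1 or A, and DESeq2 called 2 lower as well.

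The 3 chlorophyll synthesis genes, all subunits of magnesium chelatase, were each slightly higher in the mutant. MpCHLI1/2-like had 183, 199.8 and 171 CPM in the mutant, against 155, 129 and 140.1 CPM in Tak-1 (log2 fold change 0.38 ± 0.09 SE, adjusted p = 0.0121), and MpGUN5 and MpCHLD differed by 0.28 and 0.27. No call remained without mutant library A, and 1 remained without mutant library 1 or Tak-1 library 3. MpFRO2, of the ferric reductase oxidases, was higher by 1.19 ± 0.13 on the log2 scale (22.7, 21.2 and 16.3 CPM in the mutant, 9.58, 8.32 and 8.44 CPM in Tak-1; adjusted p = 5.78e-05).

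Some of the largest differences lay in genes outside these lists. MpPKC2 had 1.71, 3.79 and 3.95 CPM in the mutant, against 39.4, 25.04 and 48.1 CPM in Tak-1 (log2 fold change -3.58 ± 0.38 SE, adjusted p = 6.12e-05), and MpNPF17 had 0.219, 0.0492 and 0.108 CPM in the mutant, against 0.874, 1.80 and 1.45 CPM in Tak-1 (adjusted p = 0.00493). The MpNPF17 difference rests on few mutant reads, as 3 reads are 0.109, 0.148 and 0.108 CPM in these libraries. Mp7g07350, Mp7g07360 and Mp7g07370, numbered side by side on chromosome 7, were all lower. Mp7g07360 had 16.2, 33.3 and 21.0 CPM in the mutant, against 393, 254 and 226 CPM in Tak-1 (log2 fold change -3.64 ± 0.79 SE, adjusted p = 0.00799, and 0.128 without mutant libraries A and B). Mp5g11310 had 0.802, 1.18 and 1.08 CPM in the mutant, against 19.99, 12.1 and 12.1 CPM in Tak-1 (adjusted p = 6.81e-06), and Mp1g29600 had 1.13, 1.92 and 1.37 CPM in the mutant, against 21.5, 13.4 and 11.6 CPM in Tak-1 (adjusted p = 0.000413). In the opposite direction, Mp7g01940 had 2843, 2544 and 3273 CPM in the mutant, against 392, 358 and 358 CPM in Tak-1, a gap of 2.97 ± 0.17 (SE) on the log2 scale (adjusted p = 1.58e-06). Mp1g23230 had 274, 242 and 293 CPM in the mutant, against 65.1, 56.4 and 61.3 CPM in Tak-1 (adjusted p = 3.53e-07). Of 40 V chromosome genes tested, 2 were lower, MpVg00020 and MpVg00230 (5% called, against 14.5% of all tested genes). Each of Tak-1 library 2 and mutant libraries 1 and A was needed to keep both calls. MpVg00020 had 0.620, 0.492 and 0.467 CPM in the mutant and 1.92, 2.70 and 2.42 CPM in Tak-1 (adjusted p = 0.00180).

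The same genotypes were compared in mock plants, with other libraries, to see which differences were present without a wound. In mock, 620 genes were called (4.52% of those tested), 345 lower (2.51%) and 275 higher (2%), a count that ran from 139 to 730 with 1 mock library left out. Of the 1305 genes lower after wounding, 177 (13.6%) were lower in mock too and 10 were higher there; the 177 are 51.3% of the genes lower in mock. Of the 691 higher after wounding, 113 (16.4%) were higher in mock, which is 41.1% of the mock list, and 2 were lower. Among differences of at least 2-fold, 120 of 413 lower genes (29.1%) and 22 of 80 higher genes (27.5%) were called the same way in mock. MpFAD11 was in this set, at 164, 193 and 183 CPM in mutant mock and 507, 499 and 569 CPM in Tak-1 mock libraries (adjusted p = 3.68e-06), as was MpFAD8 (20.9, 9.98 and 9.52 CPM in mutant mock and 55.4, 76.6 and 59.4 CPM in Tak-1 mock libraries; adjusted p = 0.000475). Mp7g01940 had 2592, 4442 and 4072 CPM in mutant mock and 358, 364 and 398 CPM in Tak-1 mock libraries, the same pattern as after wounding.

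Of the 17 oxylipin genes 2, MpLOX6 and MpLOX8, were lower in mock, a count that ran from 0 to 3 with 1 mock library left out. It was 0 without mutant mock library 2, without mutant mock library 3 and without library 2 of Tak-1 mock plants. MpLOX2 had 180.1, 201 and 204 CPM in mutant mock and 228, 226 and 252 CPM in Tak-1 mock libraries (log2 fold change -0.27, adjusted p = 0.177), and MpJAZ had 26.3, 26.9 and 25.5 CPM in mutant mock and 27.0, 28.3 and 30.6 CPM in Tak-1 mock libraries (adjusted p = 0.629). Whether the genotype difference itself changed with wounding was tested as the difference after wounding minus that in mock. This passed for 451 genes (3.29% of those tested), 356 with a more negative (2.59%) and 95 with a more positive difference after wounding (0.692%; 293 and 164 with upper-quartile scaling). By this test MpLOX2 (-0.92 ± 0.15 SE on the log2 scale, adjusted p = 0.00408), MpLOX14 (-0.997 ± 0.14, 0.00183), MpCYP74N2 (-0.96 ± 0.17, 0.00681) and MpJAZ (-0.74 ± 0.16, 0.0257) were further below Tak-1 after wounding than in mock. MpDIR64, of the dirigent run on chromosome 3, was not called in this test (0.06, adjusted p = 0.981). In the desiccation list, 27 genes were lower in mock, and 4 to 36 with 1 mock library left out. By the test of the difference, 2 genes of this list had a more positive and 0 a more negative difference after wounding.

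**Figure D5:**
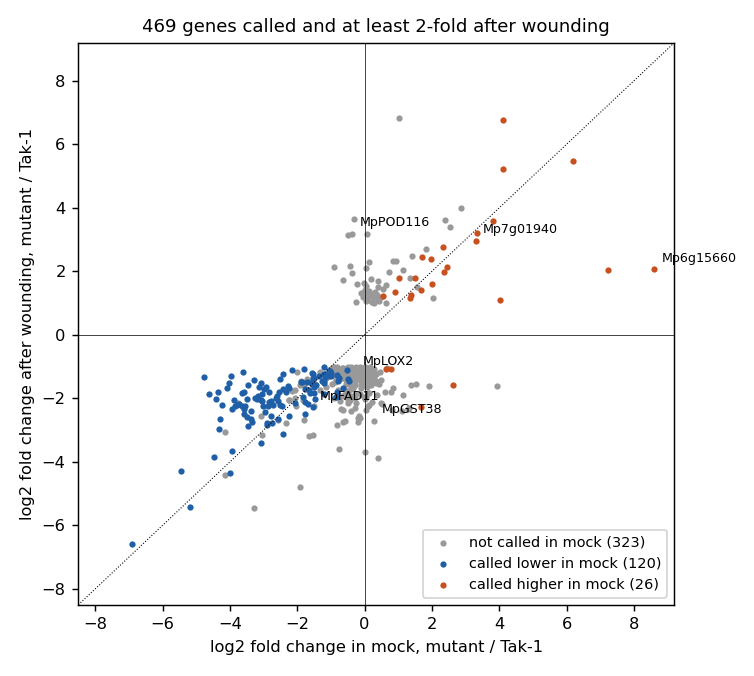
Log2 fold change of mutant over Tak-1 in mock (horizontal axis) and after wounding (vertical axis) for 469 of the 493 genes called and at least 2-fold after wounding; 24 genes with 3 reads or fewer in both mock groups are left out. Blue (120) and orange (26) points were also called in mock, and the dotted line marks equal differences. The 323 grey points had no call in mock, which does not mean no difference there. MpDIR39 (-2.23 in mock) and MpNBS-LRR6 (1.81 in mock) are among them.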

How the data were processed

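RNA-seq libraries of Mpfad3fad7 and Tak-1 plants, wounded or mock, 3 for each group and 12 in all, were compared. The authors deposited 1 table of read counts per gene for all 12 libraries. Per the submitters' processing notes, Trim Galore, HISAT2, HTSeq and edgeR were used, without versions; genome build, annotation and use of strand: not given in the sources used here. A pair of wounded mutant columns share 1 header and were kept as unnumbered replicates A and B in table order. Nothing in the labels gives separate experiments, so p-values measure the spread between these pools of plants.

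Genes with low counts were removed with edgeR 4.0.16 (filterByExpr by group; R 4.3.3), which left 13726 of 20574. All 12 libraries were fitted together with TMM scaling, 1 mean per group and the quasi-likelihood test, with Benjamini-Hochberg adjustment over all tested genes; a gene with an adjusted p under 0.05 was called. Contrasts were mutant minus Tak-1 after wounding, the same in mock, and the first minus the second. SEs derive from the F statistic and may be understated where a large change rests on few reads. On simulated counts the fit recovered 81 of 100 genes changed 2-fold and 90 of 99 changed 4-fold after wounding, over 13555 genes tested there. A count of 3 corresponds to 0.105 to 0.148 CPM in the wounded libraries; such floors cover counting error only. No pair of libraries agreed within sampling noise.

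Names and gene order came from the RefSeq gene table of assembly MpTak2_v7.1, which matched 17641 of 20574 IDs (99.1% of counts) and gave symbols to 3091; genes with symbols held 18.8% of the counts, so the gene groups cover a minor share of the transcripts. Start positions in that assembly were used only to put genes in order for the runs of neighbours. No coordinates are printed, since the files' build is not given. Members and lists were chosen with earlier results of these data known, and symbols that matched a list's pattern by spelling alone (such as PLATZ, PRX, ARF-like and, among laccases, LACS) were taken out once the symbols were known. Lists with fewer than 3 tested members (photosynthesis, sperm, and rhizoid and air pore) get no list result. Named genes were the 12 lower and 12 higher called genes with a symbol that had the largest fold change, no overlap and at least 1 CPM; the top called member of each list in each direction; all desaturase, oxylipin and jasmonate members; 5 genes without symbol in each direction at 10 CPM or more; and the 5 most abundant called genes of at least 2-fold in each direction. Called genes outside this rule were named after their values were seen. Of 254 called list members 158 kept the call without each wounded library in turn and 96 lost it without at least 1.

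Alternatives were RLE and upper-quartile scaling, no filter, the 6 wounded libraries alone, DESeq2 1.42.0, leaving out each library, and leaving out both columns with the shared header. Leaving out mock libraries for the wounded comparison, leaving out wounded libraries for the mock comparison, fits of the mock libraries alone, and the replicate block for the wounded libraries under both orders of A and B were added after seeing the data. Figures were drawn with matplotlib 3.10.9.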

Additional observations from a re-analysis of the deposited data

Results flagged for a closer look

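Among 128 genes looked at, 26 had a genotype difference after wounding that differed from that in mock (edgeR's quasi-likelihood test of the difference between both differences, adjusted p under 0.05), 22 with a more negative and 4 with a more positive difference after wounding. Over all 13726 tested genes 451 did (3.29%); most of the 128 were chosen for their values after wounding, so nothing is read from their count or its split. Values are differences of log2 fold changes, after wounding minus in mock, and their causes were not tested.

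Of the oxylipin and jasmonate genes, MpLOX4 had -1.57, MpLOX2 -0.92, MpLOX14 -0.997, MpCYP74N2 -0.96, MpCYP94-like -1.62, MpCYP94L1 -0.74 and MpJAZ -0.74. Of the desaturases, MpFAD11 had -0.73, adding to a difference already called in mock (-1.55). MpFAD5 had -0.49: it was higher in mutant mock plants (295, 343 and 300.5 CPM, against 234, 202 and 247 CPM in Tak-1 mock plants, adjusted p = 0.0133) and overlapped between genotypes after wounding. Its call in mock was lost without library 2 of mutant mock plants and without library 2 of Tak-1 mock plants.

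Of the genes of phenolic, terpene and detoxification metabolism, MpDIR17 had -0.81, MpPPO22 -0.998, Mp4CL2 -0.89, MpSQC2 -2.42 and MpGST38 -2.98. Peroxidases had positive values, 3.56 for MpPOD116 (at or near 3 reads in each wounded Tak-1 library), 1.65 for MpPOD92 and 1.27 for MpPOD121. So had MpFRO2 (0.90). MpGH3A had -1.27, Mp1R-MYB16 -0.73, MpHSP90-1 -0.54, MpPKC2 -2.82 and MpNOP1 -0.40. Of the run on chromosome 4, Mp4g03330 had -2.14 and Mp4g03350 -1.503.

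Mp6g15660, which has no symbol, had -6.54. It was at 28.0, 19.01 and 25.5 CPM in the wounded mutant and 3.32, 5.66 and 8.57 CPM in wounded Tak-1, and at 21.2, 21.1 and 25.2 CPM in mutant mock and 0, 0.143 and 0.0312 CPM in Tak-1 mock plants. The mutant libraries therefore lay above Tak-1 in both conditions, and the Tak-1 mock libraries, with 4 reads in all, stood apart from the other groups.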

How the results depend on the processing

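After wounding, 1996 genes were called, and RLE scaling (1982), no filter (1914), the wounded libraries alone (1940), DESeq2 (2375) and upper-quartile scaling (2414, of which 47.7% lower against 65.4%) stayed within 1.5 times of this. Without both shared-header columns 887 were called, at least 2-fold 493, and with 1 wounded library left out 1158 (mutant library 1) to 1704. Leaving out 1 mock library gave 1866 to 2296. In mock (620) DESeq2 called 1063, the 6 mock libraries alone 210, and 1 mock library left out gave 139 to 730, with 1 wounded library left out 449 to 642. For the difference of differences (451), DESeq2 called 805, and 1 library left out gave 262 (mutant wound 1) to 491. The cause of these changes was not tested. In the wounded groups libraries numbered 1 correlated at -0.123 in their deviations from the group means. Which of A and B is number 2 is not known, and their correlations with Tak-1 libraries 2 and 3 ran from -0.173 to 0.150. In the wounded libraries alone the replicate block gave 1206 calls with A as 2 and B as 3, and 1836 with A as 3 and B as 2. For mock, the block gave 59 calls against 210 without it. Same-numbered mock libraries' deviations correlated at -0.0893, -0.119 and 0.104. With 3 libraries for each group, such correlations cannot decide whether the numbers pair libraries, in mock or after wounding.

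Among 128 named genes, 2105 alternative values kept direction and side of the threshold, 141 lost the call, 29 gained it and 29 changed sign; of list medians 420 stayed within the spread and 12 moved. Sign changes were in genes that were not called, at most 0.49 in size in the reported fit (MpLOX7). Under upper-quartile scaling MpFAD1 was at 0.0502, MpFAD5 was at 0.0207, MpCOI1 was at 0.0162, MpTPL was at 0.0349, MpDUO1 was at 0.0402 and MpMID was at 0.0248. Without a filter MpFAD1 was at 0.00166. Without the shared-header columns MpFAD2 was at -0.135, MpLOX7 was at -0.00793, MpLOX10 was at 0.0044, MpTPL was at 0.0483 and MpMID was at 0.0804. With 1 library left out, values ran from -0.112 to 0.0882 for MpFAD1, from -0.163 to 0.165 for MpFAD2, from -0.0702 to 0.194 for MpFAD4, from -0.042 to 0.088 for MpFAD10, from -0.224 to 0.0314 for MpLOX9, from -0.0647 to 0.0114 for MpTPL, from -0.116 to 0.0813 for MpDUO1 and from -0.119 to 0.0563 for MpMID. Depth limits the genes at a few reads: the text gives no fold change against a group at or under 3 reads.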
